A study of Saccharomyces cerevisiae with 50 samples.

Results

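Protein mannosylation was followed through the cell cycle of budding yeast (Saccharomyces cerevisiae) over 10 genes, taken by their open reading frame names from 6205 open reading frames measured. Of these, 4 encode Golgi mannosyltransferases that build the outer part of N-linked glycans: MNN1 (YER001W), OCH1 (YGL038C), MNN9 (YPL050C) and VAN1 (YML115C). The other 6 encode the protein O-mannosyltransferases of the endoplasmic reticulum: PMT1 (YDL095W), PMT2 (YAL023C), PMT3 (YOR321W), PMT4 (YJR143C), PMT5 (YDL093W) and PMT6 (YGR199W). They lie on 8 chromosomes, and PMT1 and PMT5 are next to each other on chromosome IV in the gene table of assembly R64. PMT6 was measured at 17 of 25 time points and was not tested; the other 9 were.

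The samples came from a yox1 deletion mutant, arrested in G1 by alpha factor, a mating pheromone, and then released into the rich medium YEPD. Yox1 is a repressor that acts with Mcm1 at genes of the M/G1 transition. RNA of the mutant was labelled with Cy5 at 25 times from 0 to 120 min after release, 5 min apart, and set on the array against Cy3-labelled RNA of an unsynchronised wild-type culture grown in the same medium. With 2 arrays per time point there were 50 arrays in 2 sets, which the design text calls technical repeats. The p-values therefore rest on how far time points scatter about a fit, and the spread between cultures is not in them. Synchronised wild-type cells were not analysed here, so the values describe the mutant alone and give no effect of the deletion.

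The deleted gene was below the reference on 49 of the 49 arrays that measured it, with a mean log2 ratio of -1.10 ± 0.07 (SE, limma treat at 1.5-fold, adjusted p = 1.09e-06). The pheromone-induced fusion gene FUS1 stood at 3.82 at 0 min and at -1.05 at 60 min. The a-cell gene BAR1, a protease that destroys alpha factor, stood at 2.79 at 0 min and at -2.57 at 60 min. The alpha-cell receptor gene STE3 stood at -0.28 at 0 min, the alpha-specific agglutinin gene SAG1 at 0.14 and the alpha-factor gene MF(ALPHA)2 at 0.48. The arrays of a time point had a median Pearson's r of 0.716 across genes, which are no independent replicates. The arrays of 25, 40 and 55 min had a wider spread, with an SD of log2 ratios over genes of 0.744 to 1.23, against 0.333 to 0.828 on all other arrays. Where leaving out these 3 times changes a call for the mannosylation genes, both outcomes are given. Sizes and differences also moved without a change of call, and not all of these are printed.

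Mannose reaches yeast secretory proteins by separate routes. In the endoplasmic reticulum, Pmt enzymes move mannose from dolichol phosphate mannose to serine and threonine residues. Pmt1 and Pmt5 form the PMT1 subfamily and pair with partners of the PMT2 subfamily, which holds Pmt2, Pmt3 and Pmt6, while Pmt4 pairs with itself. In the Golgi, Och1 adds the mannose that starts the outer chain of N-glycans, Mnn9 and Van1 together extend its backbone as mannan polymerase I, and Mnn1 caps chains with terminal mannose. The products form the mannoprotein layer of the cell wall, which a yeast cell builds anew as its bud grows.

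The first comparison asked whether these genes oscillated with the cell cycle. MNN1, the capping enzyme gene, had the widest swing of the group, and OCH1, PMT1, PMT3 and PMT5 also oscillated. All 5 had fitted peaks between 20.0 and 29.2 min after release. Periodic landmark genes of late G1 had fitted peaks between 19.6 and 28.5 min, and the histone genes of S phase from 33.4 min on. The fitted wave repeats after 1 period by construction. Measured values were highest at 15 to 30 min within the first 60 min, and at 90 or 95 min after that. Sizes are given as the peak-to-trough height of a fitted wave on the log2 scale, at the period of 70 min that fitted 49 timing landmark genes best. Called periodic were 5 of the 9 tested genes (limma moderated F-test, adjusted p under 0.01), against 13.2% of 6063 genes tested. The median size of the 9 was 0.79, against 0.30 over all genes tested.

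**Figure D1:**
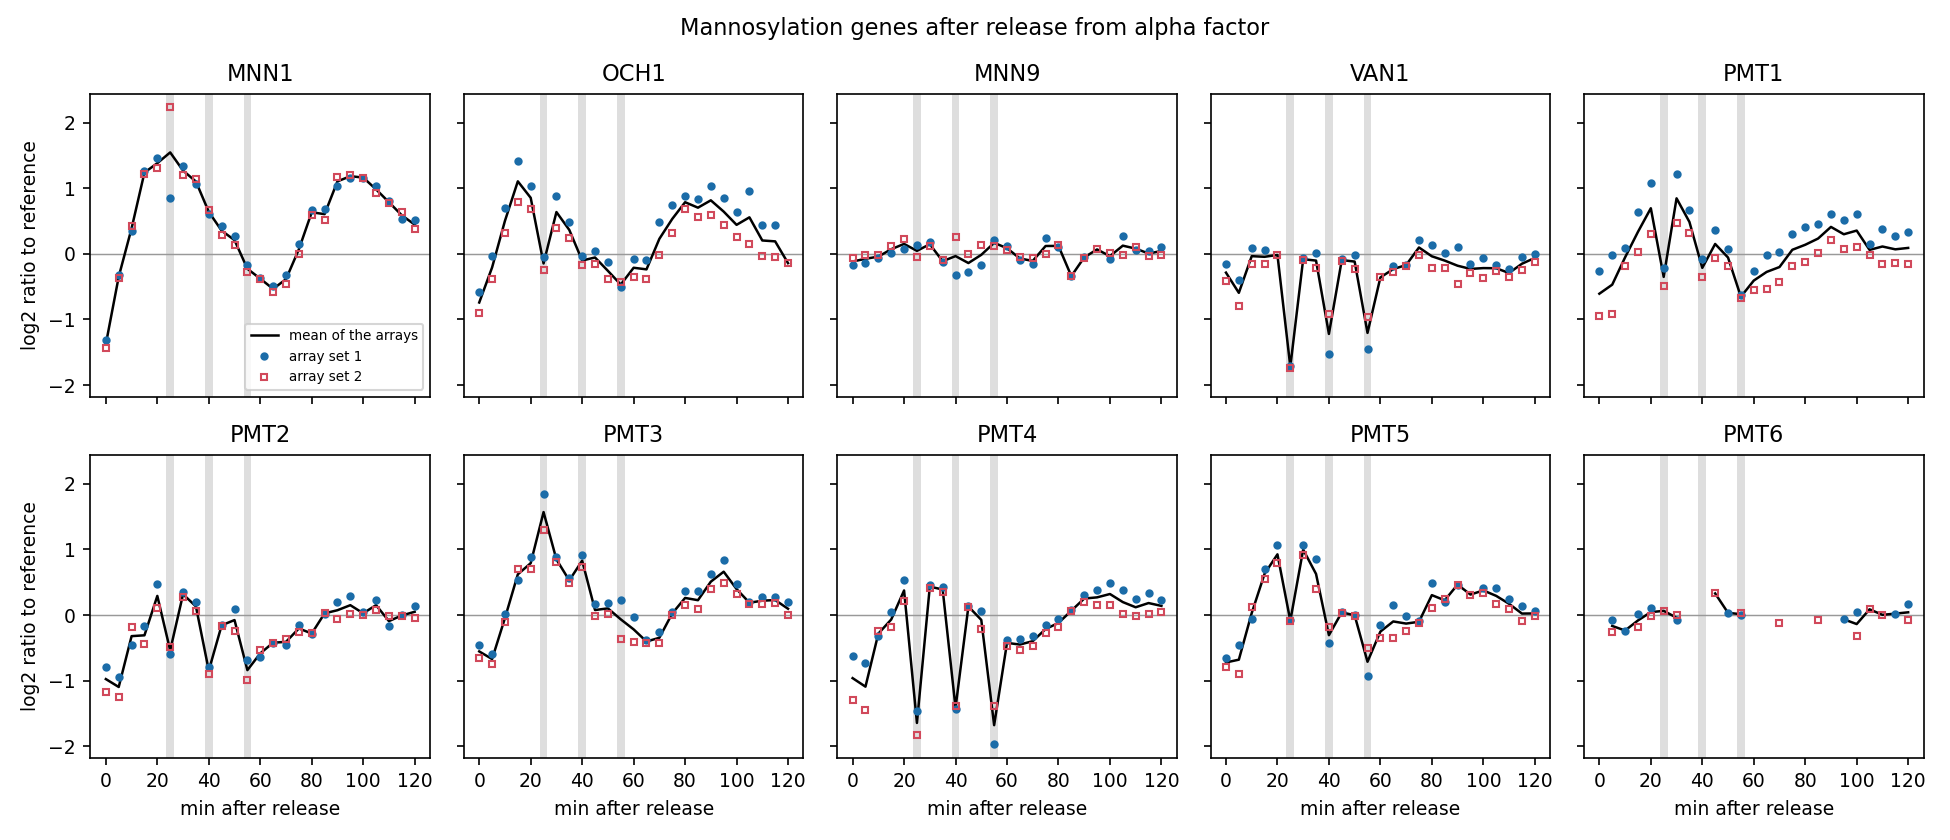
Log2 ratio to the unsynchronised wild-type reference (vertical axis) against min after release (horizontal axis) for each of the 10 genes, with filled points for array set 1, open squares for array set 2, a line for the mean of the arrays and grey bars at 25, 40 and 55 min. MNN1 climbs to 1.55 at 25 min and 1.18 at 95 min, MNN9 stays near 0, and PMT4 and VAN1 drop at the grey bars.

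MNN1 lay at -1.31 and -1.44 on the arrays of 0 min, reached 1.46 and 1.31 at 20 min, and returned to -0.49 and -0.58 at 65 min. A further crest of 1.16 and 1.21 followed at 95 min, and 0.51 and 0.38 remained at 120 min. The arrays therefore traced the same 2 crests, with 1 exception at 25 min, where set 1 gave 0.86 and set 2 gave 2.24. The fitted size was 1.94 ± 0.17 (SE, 25 time points), a 3.83-fold swing that ranked 42 among all genes tested, with a peak at 27.8 ± 0.97 min and a limma adjusted p of 3.11e-07.

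OCH1, which starts the outer chain, had the earliest fitted peak of the oscillating genes. From 65 to 120 min OCH1 was highest at 90 min, as were PMT1 and PMT5. The arrays of OCH1 gave -0.57 and -0.91 at 0 min, 1.42 and 0.79 at 15 min, -0.51 and -0.43 at 55 min, and 1.04 and 0.59 at 90 min. Array set 1 lay above set 2 at every time measured by both except 55 min, but the courses ran in parallel, with r = 0.952 over those times. The fitted size was 1.13 ± 0.17, a 2.19-fold swing, with a peak at 20.0 ± 1.6 min (limma adjusted p = 0.000102).

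The partners of mannan polymerase I did not oscillate by this test. MNN9 had a lowest value of -0.34, a median of 0.01 and a highest value of 0.17 over the 25 time points, and its fitted size was 0.05 ± 0.08 (limma adjusted p = 0.899). VAN1 had a lowest value of -1.72, a median of -0.17 and a highest value of 0.10, with a size of 0.38 ± 0.24 (limma adjusted p = 0.472). MNN9 was thus the flattest gene of the group, while the 3 lowest values of VAN1 were those of 25, 40 and 55 min.

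Among the O-mannosyltransferase genes, PMT3 had the widest swing over all times. It gave -0.60 and -0.74 at 5 min, 1.85 and 1.29 at 25 min, -0.39 and -0.42 at 65 min, and 0.84 and 0.49 at 95 min. The size was 1.22 ± 0.17, a 2.33-fold swing with a peak at 29.2 ± 1.5 min (limma adjusted p = 8.12e-05). Pmt3 is the close relative of Pmt2, whose gene had a size of 0.65 ± 0.17 and missed the threshold (limma adjusted p = 0.0183). The PMT2 value passed it in a replicate block fit, with array set as a fixed term and time point as the block (limma adjusted p = 0.00128). That fit keeps the arrays apart, with a correlation of 0.548 between arrays of a time point estimated over genes measured on every array, and so has 45 residual degrees of freedom, against 21 for the averaged time points.

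The neighbouring genes PMT1 and PMT5, both of the PMT1 subfamily, swung by 0.79 ± 0.16 and 0.95 ± 0.19 with peaks at 26.1 ± 2.2 and 25.8 ± 2.1 min. Their limma adjusted p-values were 0.00300 and 0.00220. PMT5 gave 1.08 and 0.92 at 30 min, -0.93 and -0.50 at 55 min, and 0.47 and 0.46 at 90 min. PMT1 gave 1.23 and 0.47 at 30 min, -0.63 and -0.67 at 55 min, and 0.61 and 0.22 at 90 min. Both genes had their highest values of each cycle at 30 and 90 min, while the lowest value of the course was that of 55 min for PMT1 and 0 min for PMT5. PMT1 differed more between its arrays than PMT5 (SD within a time point 0.35, against 0.17 for PMT5). Neither call held with 2 harmonics in the wave (limma adjusted p = 0.0204 for PMT1 and 0.0152 for PMT5), and PMT1 was lost in array set 1 alone (0.0106).

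PMT4 had a size of 0.70 ± 0.32 and was not called (limma adjusted p = 0.240). With arrays scaled to a common spread it was called, with a size of 0.80 (limma adjusted p = 0.00693), and so were 7 of the 9 genes, against 20.2% of all genes. PMT6, with values on 24 of 50 arrays, lay between -0.24 and 0.33 with a median of 0.00. With no filter on missing values its size was 0.30 (limma adjusted p = 0.110).

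The order of fitted sizes was MNN1, PMT3, OCH1, PMT5, PMT1, PMT4, PMT2, VAN1 and MNN9. MNN1 lay above PMT3 by more than the sum of their SEs, and so did VAN1 above MNN9. All other neighbours in this order lay within the sum of their SEs of each other. Without 25, 40 and 55 min the order was MNN1, OCH1, PMT3, PMT5, PMT4, PMT1, PMT2, VAN1 and MNN9. MNN1 then lay above OCH1, and PMT2 above VAN1, by more than the sum of their SEs, and VAN1 no longer lay so above MNN9. The peak times can be set beside those of timing landmarks. Periodic targets of MBF, a late G1 factor of DNA replication genes, peaked on average at 23.9 ± 2.2 min (SD, 12 genes), and those of SBF, a late G1 factor of budding and wall genes, at 26.6 ± 1.7 min (SD, 5 genes). Histone genes, which mark S phase, followed at 34.7 ± 0.85 min (SD, 8 genes) and the mitotic CLB2 cluster at 56.3 ± 2.4 min (SD, 10 genes). By fitted peak, the 5 periodic mannosylation genes lay between the SIC1 cluster of mitotic exit (7.48 ± 1.6 min, SD, 7 genes) and the histones. Fitted peaks are times within a period, so an early one need not be a crest just after release. SIC1, which encodes a cyclin kinase inhibitor, had a fitted peak at 6.99 min. Its measured values were -0.95 at 0 min, -1.05 at 5 min and -0.90 at 10 min, and the highest, 0.90, came at 75 min. Other single landmarks had fitted peaks at 24.4 min for the G1 cyclin gene CLN2 and 35.2 min for the histone gene HTA1. The mitotic cyclin gene CLB2 stood at 56.2 min and was not itself called periodic (limma adjusted p = 0.0171). Differences in peak time between single genes were not tested.

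**Figure D2:**
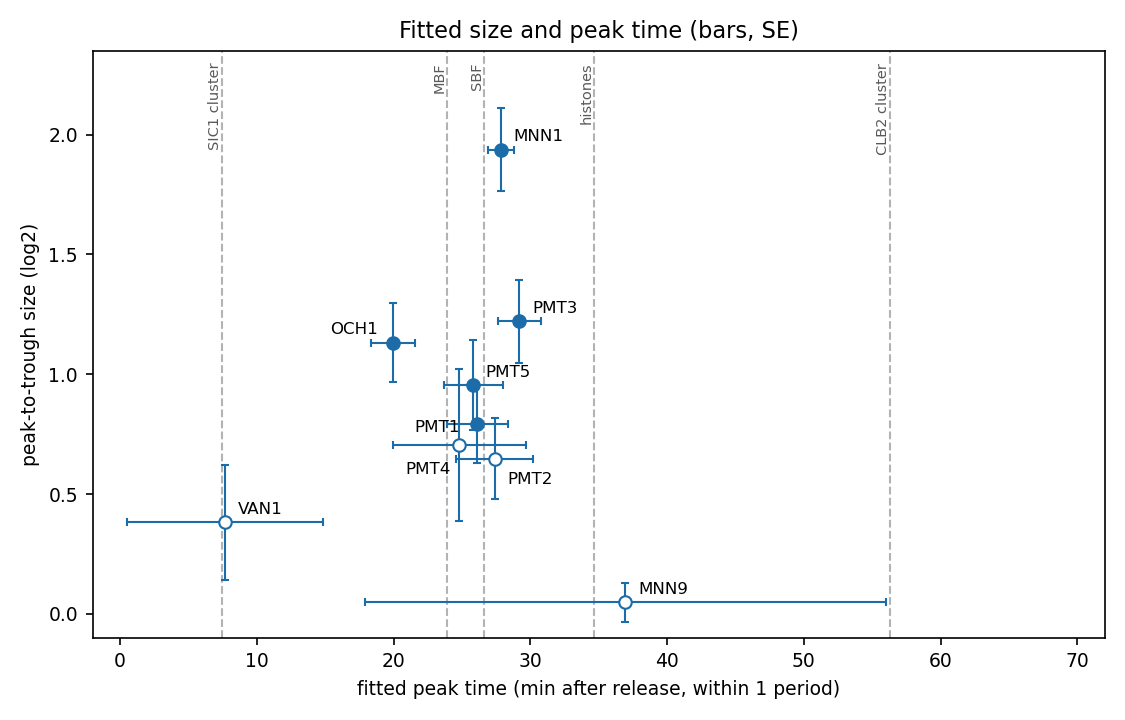
Fitted peak-to-trough size (log2, vertical axis) against fitted peak time (min after release within 1 period, horizontal axis) for the 9 tested genes, with SE bars, filled circles for genes called periodic and dashed lines at the mean peaks of landmark lists. All filled circles stand between 20.0 and 29.2 min, left of the histone line at 34.7 min.

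The swing was smaller in the later part of the course for all 5 periodic genes. Waves fitted to 60 to 120 min and to 0 to 60 min had sizes of 1.61 and 2.27 for MNN1, 0.99 and 1.13 for OCH1, and 0.79 and 1.61 for PMT3. They were 0.61 and 1.04 for PMT1, and 0.59 and 1.29 for PMT5. The ratio of later to earlier size lay between 0.455 and 0.882, with OCH1 keeping the largest share. Over all 799 periodic genes the median ratio was 0.567, with quartiles of 0.456 and 0.729. PMT5 lay just under the lower quartile, PMT3, PMT1 and MNN1 between the quartiles and OCH1 above the upper one. The difference from other genes was not tested. All 3 wide-spread times fall in the earlier part, and the fit without them was chosen after seeing the data. It gave ratios of 0.677 for MNN1, 0.677 for OCH1, 0.563 for PMT3, 0.434 for PMT1 and 0.359 for PMT5. The quartiles over the periodic genes were then 0.440 and 0.736 with a median of 0.555, so that PMT1 joined PMT5 under the lower quartile and OCH1 lay between the quartiles.

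The values of 25, 40 and 55 min changed the picture for the Pmt genes. PMT4 lay at -1.47 and -1.82 at 25 min, at -1.43 and -1.39 at 40 min, and at -1.97 and -1.39 at 55 min. At the times 5 min before and after, its means were between -0.42 and 0.43. These are drops in both array sets at the same 3 times, with a mean departure from the neighbouring times of -1.72, and only 3.39% of 5869 genes stood lower. VAN1 departed by -1.25 (6.53% of genes lower), PMT5 by -0.76, PMT2 by -0.73, PMT1 by -0.69 and OCH1 by -0.46. PMT3 went the other way, with 0.42, and stood above its neighbours by 0.75 at 25 min. MNN1 and MNN9 averaged -0.0034 and 0.04, but for MNN1 at 25 min the sets gave opposite departures, -0.54 in set 1 and 0.98 in set 2.

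**Figure D3:**
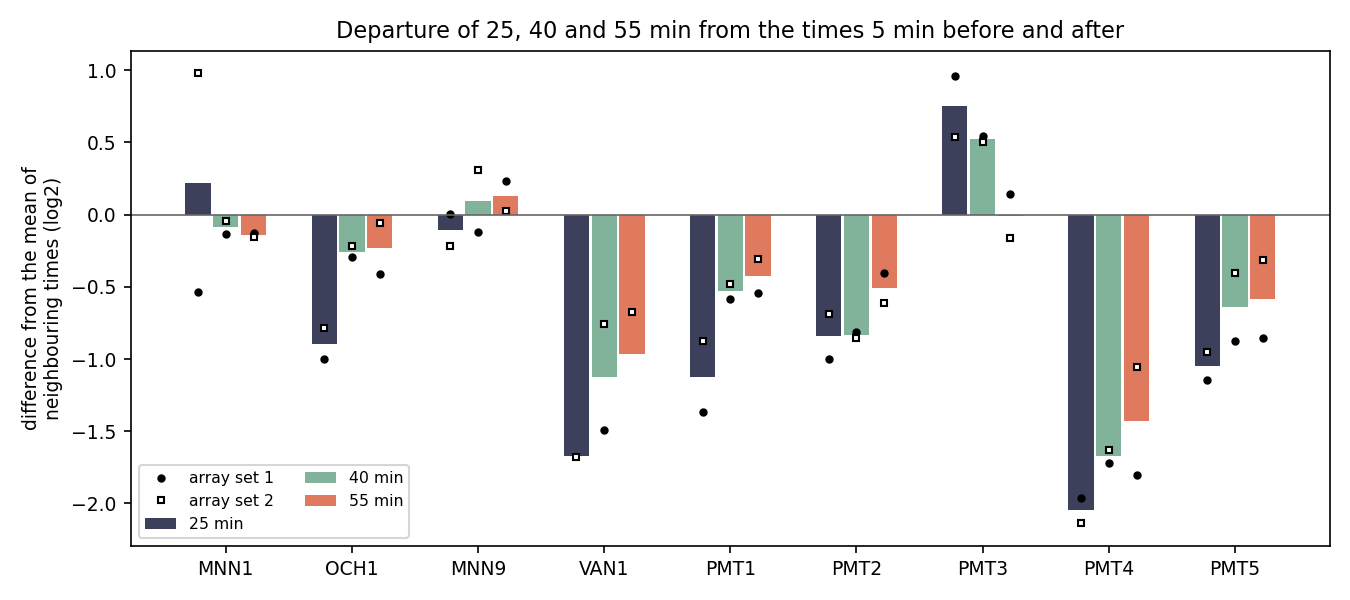
Difference (log2, vertical axis) between the values of 25, 40 and 55 min and the mean of the times 5 min before and after, for each tested gene, with bars for the mean of the arrays, filled points for array set 1 and open squares for array set 2; a point is missing where an array lacks a neighbouring value. The bars of PMT4 reach -2.05, -1.67 and -1.43, and those of PMT3 at 25 and 40 min stand at 0.75 and 0.53.

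Without these 3 times, 7 of the 9 genes were called periodic, against 24.8% of 6087 genes, so that every tested Pmt gene was among them. PMT4 then had a size of 0.93 ± 0.13 with a peak at 31.2 ± 1.5 min (limma adjusted p = 7.31e-05, 22 time points). PMT2 had a size of 0.76 ± 0.14 with a peak at 30.5 ± 2.0 min (limma adjusted p = 0.000687). PMT1, PMT3 and PMT5 had peaks at 28.1, 28.2 and 27.9 min, MNN1 at 27.9 min and OCH1 at 21.1 min. OCH1 thus remained the earliest of the 7, while the 5 Pmt genes spanned 27.9 to 31.2 min. VAN1 shrank to 0.11 ± 0.10 (limma adjusted p = 0.655) and MNN9 was at 0.06 ± 0.09 (limma adjusted p = 0.806). What set these arrays apart was not tested.

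The second comparison assumed no wave. It set the mean of 15 to 30 min, where the late G1 targets of MBF and SBF crest, against the mean of 45 to 60 min, where mitotic genes crest. Histone genes, with a mean fitted peak at 34.7 min, crest between these windows. In the first cycle 4 of the 9 genes were higher in the early window and none was lower (limma, adjusted p under 0.05), against 6.48% of genes higher and 4.93% lower. These were MNN1, PMT3, OCH1 and PMT5. The early window was above the late one for 8 of 9 genes, as for 48.4% of all genes.

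Overlap of the windows is given as a description. The points of a window are successive times of the same course, and the share of all genes without overlap was not counted. MNN1 was between 1.24 and 1.55 in the early window and between -0.38 and 0.35 in the late one, so that the windows did not overlap. The difference was 1.37 ± 0.18 (SE, limma adjusted p = 0.000329). PMT3 was between 0.62 and 1.57 early and between -0.22 and 0.10 late, again without overlap (0.98 ± 0.18, limma adjusted p = 0.00372). OCH1 was between -0.15 and 1.11 early and between -0.47 and -0.05 late, and the windows overlapped through the low value of 25 min (0.86 ± 0.22, limma adjusted p = 0.0233). PMT5 was between -0.09 and 1.00 early and between -0.71 and 0.04 late, with the same overlap (0.85 ± 0.22, limma adjusted p = 0.0264). PMT1 had a difference of 0.62 ± 0.23 and was not called (limma adjusted p = 0.118). The same difference was called in the replicate block fit on separate arrays (limma adjusted p = 0.0313). PMT1 was also called without 25, 40 and 55 min (0.73 ± 0.15, limma adjusted p = 0.00364), where 5 of 9 genes were higher, against 13.3% of genes.

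PMT2 and PMT4 had differences of 0.35 ± 0.21 and 0.29 ± 0.44, MNN9 of 0.08 ± 0.11 and VAN1 of -0.02 ± 0.35, all uncalled. Dates in the array titles split the course, so the contrast was also taken within arrays of 1 title date. This left out 60 min in both array sets and 15 min in array set 2. In array set 1 it was 1.05 for MNN1, 0.84 for PMT3, 1.02 for OCH1 and 0.99 for PMT5. In array set 2 it was 1.53, 1.06, 0.60 and 0.69 for the same genes. All 4 kept their direction within dates. The OCH1 call was lost when 15, 20, 50 or 60 min was left out, and the PMT5 call when 15, 20, 30, 55 or 60 min was, so that 2 calls were left without 15, 20 or 60 min. PMT5 was also lost in array set 1 alone (adjusted p = 0.0511). The lowest differences among all single omissions were 0.70 for OCH1 and 0.69 for PMT5.

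**Figure D4:**
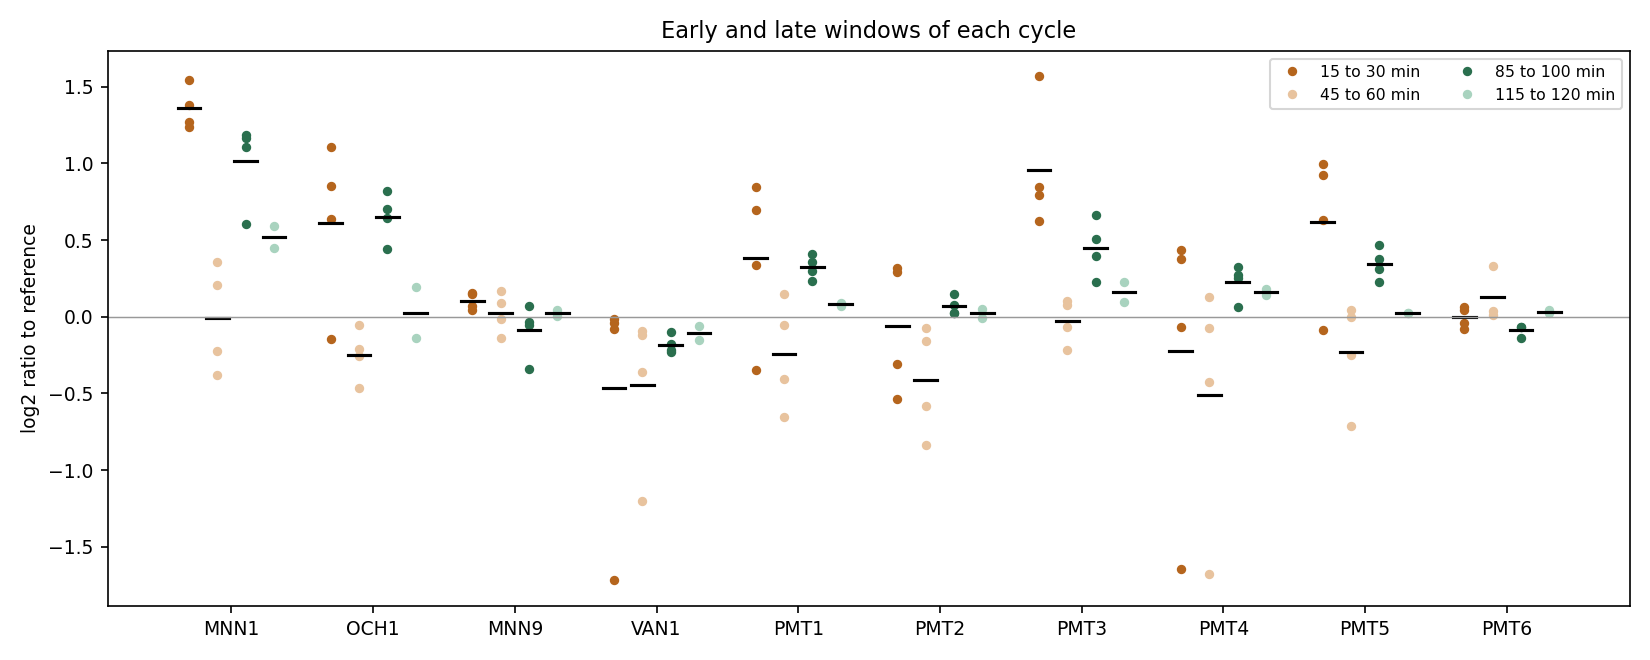
Log2 ratio to the reference (vertical axis) at the time points of the early and late windows of each cycle, by gene (horizontal axis), with points for time points (mean of the arrays) and black lines for window means. The early points of MNN1 and PMT3 (15 to 30 min) stand above all late points of the same gene (45 to 60 min).

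The same contrast in the second cycle, 85 to 100 min minus 115 and 120 min, gave no call for any of the 6063 genes (limma), with 261 genes (4.30%) at an unadjusted p under 0.05. Without 25, 40 and 55 min 19 genes were called, none of them of the group. MNN1 averaged 1.01 ± 0.27 early and 0.52 ± 0.10 late (SD, 4 and 2 time points), and OCH1 averaged 0.65 ± 0.16 early and 0.02 ± 0.23 late. These 2 genes were the ones of the group at an unadjusted p under 0.05, with differences of 0.50 ± 0.22 and 0.63 ± 0.27 (SE). PMT5 differed by 0.32 ± 0.27, PMT3 by 0.29 ± 0.22 and PMT1 by 0.24 ± 0.29. The later difference minus the earlier one was below 0 for all 9 genes, as for 49.5% of all genes, and was not called for any gene, with 354 (5.84%) at an unadjusted p under 0.05. It was -0.87 ± 0.28 for MNN1 (limma adjusted p = 0.454) and -0.70 ± 0.29 for PMT3 (0.707), the 2 at an unadjusted p under 0.05. Only 2 time points sampled the late window of the second cycle.

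The third comparison asked whether 0, 5 and 10 min, the first samples after pheromone arrest, departed from the fitted cycle. No gene of the group was called in either direction (limma, adjusted p under 0.01), against 1.34% of genes higher and 1.25% lower. The departure was below 0 for 8 of 9 genes, as for 51.9% of all genes. PMT3 came nearest with -0.72 ± 0.18 (limma adjusted p = 0.0181), followed by MNN1 with -0.63 ± 0.20 (0.0642) and PMT5 with -0.57 ± 0.23 (0.171). These 3 were the genes of the group at an unadjusted p under 0.05. The share of all genes at that cut was not counted, so this number has no background.

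The same PMT3 departure was called in the replicate block fit on separate arrays (limma adjusted p = 0.00119). With arrays scaled to a common spread it was -0.43 (limma adjusted p = 0.0428), and that of MNN1 was -0.26 (0.574). Without 25, 40 and 55 min, PMT5 (-0.78 ± 0.14), PMT3 (-0.59 ± 0.13), PMT1 (-0.53 ± 0.12) and PMT4 (-0.52 ± 0.12) were called lower (limma adjusted p from 0.000659 to 0.00710), against 3.6% of genes. The first times can also be set directly beside 70 to 80 min, 1 period later. PMT4 averaged -0.78 over 0 to 10 min and -0.24 over 70 to 80 min, and PMT2 averaged -0.80 and -0.30 over the same times. OCH1 averaged -0.15 over 0 to 10 min and 0.52 over 70 to 80 min, and MNN1 averaged -0.44 and 0.11. The earlier mean was the lower one for all 9 genes in both array sets, as it was for 51.2% of all genes in the mean of the sets. The differences ran from -0.66 for OCH1 to -0.12 for MNN9, and they were not tested.

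The fourth comparison set the mean of the whole course against the reference. These are ratios of the same gene in 2 RNAs and say nothing of which gene has more transcript. No gene of the group differed by more than 1.5-fold (limma treat, adjusted p under 0.01, and none at an unadjusted p under 0.05), against 2.08% of genes higher and 3.61% lower. In falling order the means were 0.50 ± 0.06 (SE) for MNN1, 0.24 ± 0.06 for OCH1, 0.24 ± 0.06 for PMT3, 0.09 ± 0.06 for PMT5 and 0.04 ± 0.05 for PMT1. Below these came MNN9 with 0.0042 ± 0.03, PMT2 with -0.24 ± 0.06, PMT4 with -0.24 ± 0.11 and VAN1 with -0.31 ± 0.08. MNN1 stood above OCH1, PMT3 above PMT5 and MNN9 above PMT2 by more than the sum of their SEs, and no other neighbours in this order did. Without 25, 40 and 55 min the means were 0.48 ± 0.06 for MNN1, 0.31 ± 0.05 for OCH1, 0.16 ± 0.05 for PMT3, 0.16 ± 0.06 for PMT5 and 0.10 ± 0.04 for PMT1. They were -0.0035 ± 0.03 for MNN9, -0.054 ± 0.04 for PMT4, -0.16 ± 0.03 for VAN1 and -0.17 ± 0.04 for PMT2. In that order MNN1 stood above OCH1, OCH1 above PMT3, PMT1 above MNN9 and PMT4 above VAN1 by more than the sum of their SEs, and PMT3 did not stand so above PMT5.

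With no fold limit the course averages of MNN1, OCH1 and PMT3 were above the reference and those of PMT2 and VAN1 below it (limma adjusted p from 3.45e-08 to 0.00172). This compares with 33.2% of genes higher and 33.4% lower, 66.6% in all. The same 5 were called without 25, 40 and 55 min, against 36.6% of genes higher and 36.4% lower. The array sets gave MNN1 the same mean, 0.50, but differed for OCH1, with 0.42 (set 1) and 0.07 (set 2), and for PMT3, with 0.33 (set 1) and 0.14 (set 2). PMT2 had -0.19 (set 1) and -0.29 (set 2), and VAN1 -0.26 (set 1) and -0.37 (set 2). For PMT1 the means had opposite signs, 0.27 (set 1) and -0.18 (set 2). No array had its dyes exchanged, and the reference is 1 RNA whose own spread is left out.

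Some of the genes resembled each other in the shape of their courses, and others did not. Correlations here are over the 25 averaged time points, which share arrays, and are descriptions with no background from other gene pairs. PMT1 and PMT5 had the highest r of all pairs, 0.957. Among the 10 pairs of PMT1 to PMT5 the median r was 0.807, with a range from 0.105 (PMT3 and PMT4) to 0.957. Without 25, 40 and 55 min the range narrowed to 0.842 to 0.973, with the highest r for PMT2 and PMT4. Across the routes, MNN1 ran closest to PMT3 (r = 0.878) and OCH1 closest to PMT5 (r = 0.816). VAN1 and PMT4 had r = 0.843 over all times and 0.533 without the 3 times. Over all times the r of VAN1 with the other genes ran from -0.331 (PMT3) to 0.843 (PMT4). MNN9 had no r above 0.282 with any other gene of the group. PMT6, over 17 time points, ran from -0.287 (OCH1) to 0.240 (PMT2).

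The genes with the most similar courses were looked up among all genes measured at every time point. For MNN1 these were CDC21, which encodes thymidylate synthase (r = 0.970), the late G1 gene TOS4 (0.936) and PDS1, the securin gene (0.935). For OCH1 they were RNR1, the large subunit of ribonucleotide reductase (0.949), the flap nuclease gene RAD27 (0.930) and YBR071W (0.917). Both lists held MBF targets fixed as timing landmarks. Fitted peaks were at 27.5 min for CDC21, 26.9 min for TOS4 and 31.1 min for PDS1, beside 27.8 min for MNN1. They were at 22.2 min for RNR1, 22.4 min for RAD27 and 17.5 min for YBR071W, beside 20.0 min for OCH1. Genes picked by r over the same time points tend to share a peak time through that choice, so these times add no separate evidence.

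PMT1 and PMT5 shared MCD4, a gene of glycosylphosphatidylinositol (GPI) anchor synthesis (r = 0.963 and 0.962), and each had the other among its nearest 3. The remaining places went to CSI2 for PMT1 (0.927) and to HIF1, which encodes a histone chaperone, for PMT5 (0.963). PMT3 was nearest to RKM1, a methyltransferase gene (0.927), the morphogenesis checkpoint kinase gene HSL1 (0.923) and the spindle pole body gene SPC29 (0.920). PMT2 was nearest to CSR1 (0.956), LPX1 (0.927) and the signalling mucin gene MSB2 (0.922).

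PMT4 was nearest to STT3, the catalytic subunit of oligosaccharyltransferase (0.973), the wall glucanosyltransferase gene GAS1 (0.967) and the wall gene DCW1 (0.966), which stayed at 0.927 to 0.950 without the 3 times. VAN1 was nearest to MRM1, a mitochondrial rRNA methyltransferase gene, and to the enolase genes ENO1 and ENO2, with r of 0.976 to 0.980, but 0.733 to 0.779 without the 3 times. MNN9 had no close neighbour, with 0.634 for SPO21, 0.630 for GLO4 and 0.598 for YMD8. PMT6 had 17 time points and was nearest to UBR2 (0.865), YAR010C (0.819) and YML040W (0.819).

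The rest of the mannose pathway was covered by 6 lists with 46 genes, all tested. Periodic were 7 (15.2%), close to the 13.2% of all genes tested, and the median size was 0.26, against 0.30 over all genes. The largest swing was that of PMI40, the mannose phosphate isomerase gene that feeds mannose into the pathway (1.28 ± 0.18, peak at 31.9 ± 1.6 min, limma adjusted p = 8.95e-05). VRG4, which brings GDP-mannose into the Golgi, swung by 0.67 ± 0.14 with a peak at 32.7 ± 2.3 min (limma adjusted p = 0.00360). These were 2 of 7 donor supply genes. Both also lay below their fitted cycle at 0 to 10 min, by -0.83 ± 0.19 for PMI40 and -0.70 ± 0.13 for VRG4 (limma adjusted p = 0.00746 and 0.00164).

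MNN10, a subunit of mannan polymerase II, was 1 of 8 outer chain genes called. Its size was 0.55 ± 0.10 and its peak came at 51.1 ± 2.0 min, just before the earliest of the CLB2 cluster genes at 53.5 min. Of the 11 genes of the KRE2 and MNN1 families, KTR1 peaked at 27.8 min, KTR7 at 57.5 min and MNT2 at 59.1 min, with sizes of 0.49, 0.38 and 0.48. In the first window contrast 2 of 46 genes (4.35%) were lower and 2 (4.35%) higher, near the 4.93% and 6.48% of all genes. MNN10 and MNT2 were lower early than late (-0.60 ± 0.15 and -0.55 ± 0.14, limma adjusted p = 0.0193 and 0.0225). KTR5 and OST4 were higher early, by 0.41 ± 0.11 and 0.88 ± 0.26 (limma adjusted p = 0.0312 and 0.0440). After release KTR6 and KTR2 stood above their cycle by 0.56 ± 0.12 and 1.17 ± 0.17 (limma adjusted p = 0.00582 and 0.000127), so that 4.35% of the 46 genes were called in each direction, against 1.34% of all genes higher and 1.25% lower.

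Of the 6 mannosyltransferases that build the lipid-linked oligosaccharide, ALG2 was periodic (0.47 ± 0.10, peak at 32.8 min, limma adjusted p = 0.00375). No oligosaccharyltransferase subunit of 9 was called periodic, and no GPI anchor mannosyltransferase of 5. The mean over the course passed the 1.5-fold test for 1 gene of the 46 (2.17%, near the 2.08% of all genes higher), OST4, with 1.26 ± 0.08 (limma adjusted p = 1.66e-07).

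**Figure D5:**
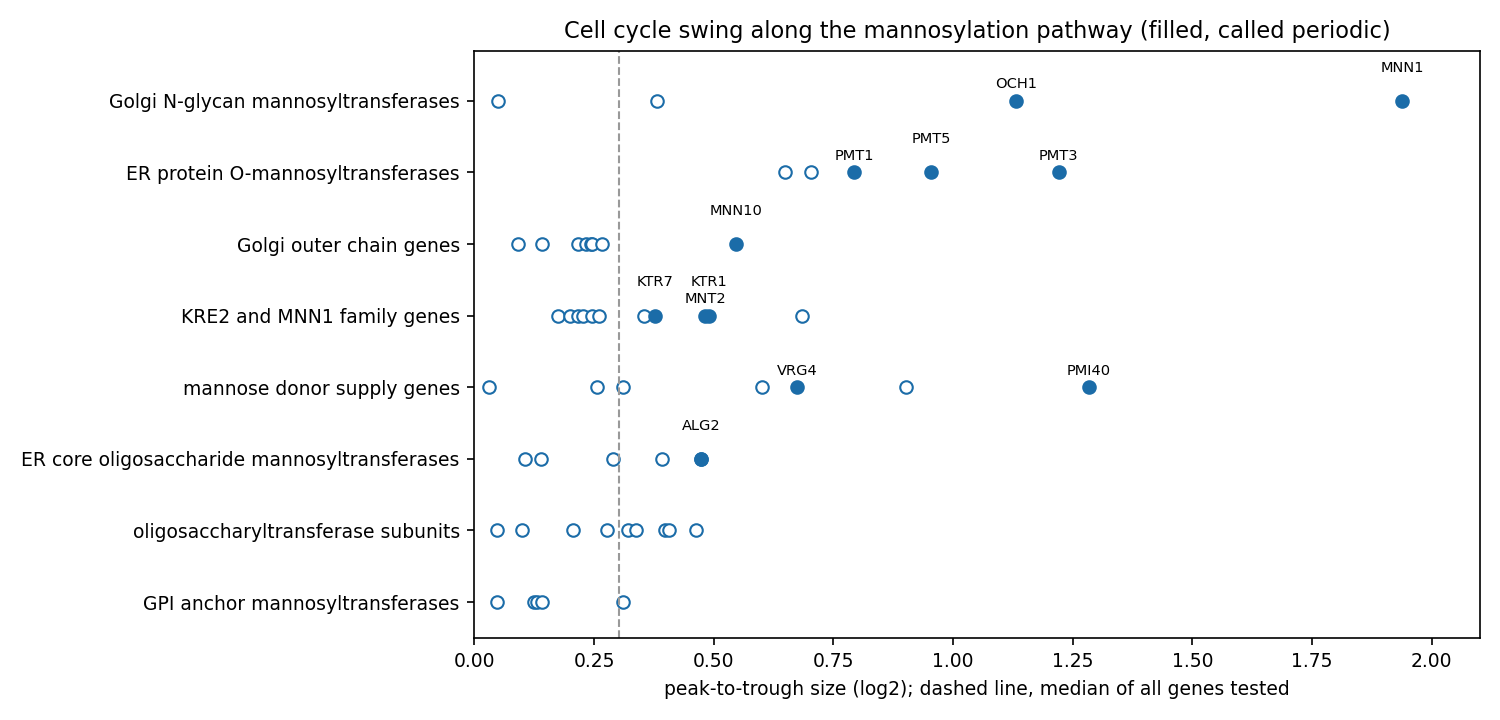
Fitted peak-to-trough size (log2, horizontal axis) of every tested gene, by pathway list (vertical axis), with filled circles for genes called periodic and a dashed line at 0.30, the median of all genes tested. The filled circles of MNN1, PMT3 and OCH1 in the top 2 lists and of PMI40 among the donor supply genes lie beyond 1.1 on this axis.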

How the data were processed

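The authors deposited 1 table of log ratios for 50 two-colour arrays, with Cy5 for the mutant and Cy3 for the reference, per the labels. The base, log10, is inferred from the deposited values, which end at exactly -2 and 2, and the direction, Cy5 over Cy3, from the dyes together with the high FUS1 ratio at 0 min. Scanner, background correction and normalization were not given in the sources used here. Without intensities the number of arrays limits the precision. In turn, 212 limit values were removed, the rest put on the log2 scale, each array's median subtracted, and both arrays per time point averaged. Of 6217 rows 12 are controls. The R64 gene table gave symbols to 5704 of 6205 open reading frames by locus tag. Genes measured at 20 or more time points were tested (6063).

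Tests used limma 3.58.1 in R 4.3.3, with Benjamini-Hochberg adjustment over all genes tested; figures used matplotlib 3.10.9 in Python 3.11.15. Periodicity was tested on a cosine and a sine term together (moderated F) beside a linear time term, release by an added term for 0, 5 and 10 min, the mean by treat, each at an adjusted p under 0.01, and windows by contrasts at 0.05. The period, 70 min, had the smallest residual variance over landmark genes between 40 and 90 min (71 min in array set 1 and 70 min in array set 2). In simulated data of 6063 genes, with independent normal noise at each time point, waves of size 0.5, 1 and 2 were called periodic in 35%, 79% and 98% of cases, with 2 false calls. Noise shared between genes or times was not simulated, so these figures give no error rate for the measured series. Arrays of a set deviated together: over 300 pairs of time points, r between the deviations of set 1 from the mean of the arrays was 0.176 to 0.814. A replicate block fit on separate arrays was therefore added, with array set as a fixed term and time point as the block.

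The title of 1 array reads 75 min but its source name 0 min, and it was counted as 75 min. In array set 2 the titles of 0, 5 and 15 min carry the letter M, which is not explained. Samples were 10 min apart by the treatment label and 5 min apart by the design text and the time points. The genes described, the pathway lists and the tests were chosen with earlier results of these data known. Named are all 10 genes, the 3 genes with the highest r to each, the 4 periodic genes of largest size of each other pathway list, any gene behind a count of 5 or fewer, YOX1, FUS1 and landmarks. BAR1, STE3 and SAG1 are named from the fixed cell type markers. Alternatives are described in the closing section.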

Additional observations from a re-analysis of the deposited data

How the results depend on the processing

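Each result was recomputed with either array set alone, the replicate block fit and the dates in array titles as a factor. Other alternatives were other centring, scaling, filters, periods, trends and wave forms, suspect arrays left out and each time point left out. Of the single-gene values under the alternatives other than single omissions, 774 kept direction and side of the threshold, 4 lost and 23 gained a call, and 18 changed sign. Periodic genes numbered 1224 with scaled arrays (7 of the group, with PMT2 and PMT4 gained), 1509 without 25, 40 and 55 min, 508 with 2 harmonics (3 of the group) and 1433 at an adjusted p under 0.05. Release genes, 81 higher and 76 lower in the main setting, numbered 96 in array set 2 alone, 88 in set 1 alone, 103 with scaled arrays, 427 without the 3 times (4 of the group), 10 with a quadratic trend, 84 with 2 harmonics, 355 at 0.05 and 66 to 246 over single omissions. For release, 1 gene of the group was called in the replicate block fit, with title date as a factor, and at 0.05 (PMT3 in each). With a period 5 min longer 2 were called (MNN1 and PMT3), and 0 to 1 over single omissions (PMT3 without 25 min, -0.63, and MNN1 without 10 min, -0.90). Mean genes, 126 higher and 219 lower in the main setting, numbered 188 in set 2 alone, 628 in set 1 alone, 71 at a fold change of 2 and 4039 with no fold limit (5 of the group). First window genes, 393 higher and 299 lower in the main setting, numbered 1556 without the 3 times and 436 to 1047 over single omissions (2 to 5 of the group). Second window genes, 0 in the main setting, numbered 8 with the replicate block, 6 with title date, 6 with no centring, 7 scaled, 5 with complete genes, 19 without the 3 times, 3 without the letter M arrays and 0 to 8 over single omissions. Window difference genes, also 0, numbered 4 with the replicate block, 1 with title date, 13 without the 3 times and 0 to 7 over single omissions; none was a mannosylation gene. The replicate block, a fit on separate arrays with more residual degrees of freedom, added the calls of PMT2 (periodic), PMT3 (release) and PMT1 (first window) and changed no other call of the group. Changes of sign touched uncalled values. The VAN1 release term was -0.039 in set 2 alone and 0.35 in set 1 alone, -0.021 scaled, -0.25 without the 3 times, -0.15 with no trend, -0.069 with a quadratic trend, -0.044 with 2 harmonics and -0.066 to 0.27 over single omissions. The PMT4 release term was 0.17 in set 1 alone and -0.25 in set 2 alone, 0.033 with title date, 0.16 without the letter M arrays, 0.084 with a period 5 min shorter and -0.26 to 0.11 over omissions. The MNN9 mean was -0.014 in set 1 alone and 0.021 in set 2 alone, -0.0035 without the 3 times, -0.0025 without the letter M arrays and -0.0026 to 0.018 over omissions, and the PMT1 mean was -0.18 in set 2 alone and 0.27 in set 1 alone. The VAN1 first window difference was 0.16 scaled, 0.14 without the 3 times, 0.0052 without the letter M arrays and -0.28 to 0.40 over omissions, and that of PMT4 was -0.10 to 0.76 over omissions. The VAN1 difference between windows was 0.054 in set 1 alone, -0.063 in set 2 alone and -0.47 to 0.20 over omissions, and that of PMT4 was -0.69 to 0.17. The cause of these moves was not tested.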

Other observations

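Without 25, 40 and 55 min, 15 of the 46 other pathway genes (32.6%) were called periodic, where 7 (15.2%) were over all times, while the share of all genes called was 24.8% without these times and 13.2% with them. Of the donor supply genes 4 of 7 were called: PMI40, VRG4, GDA1 and PSA1, the last of which encodes the enzyme that makes GDP-mannose. Of the oligosaccharyltransferase subunits 3 of 9 were called (OST2, STT3 and WBP1), where 0 of 9 were called over all times. The KRE2 and MNN1 families had 5 of 11, with MNT4 and YUR1 beside KTR1, KTR7 and MNT2, and the outer chain genes had 2 of 8, MNN10 and MNN11. The mannosyltransferases of the lipid-linked oligosaccharide stayed at 1 of 6 (ALG2) and those of the GPI anchor at 0 of 5.

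The array of 25 min in set 2 gave the highest value of MNN1 in the series, 2.24, and the array of the same time in set 1 gave 0.86, below the 1.46 of 20 min and the 1.34 of 30 min in that set. OCH1 differed between the sets by 0.80 at 105 min, with 0.96 in set 1 and 0.16 in set 2.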
